A study of Chlorocebus sabaeus with 32 samples.

Results

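The genes described here make, sense, move and export cholesterol: 31 genes of the sterol pathway, measured in hippocampal RNA of 32 vervet monkeys (Chlorocebus sabaeus). They were taken by name from the 33994 gene rows of the deposited count table. Of the 31, 29 had a row under their own symbol. The rows of CYP51A1 and CYP46A1 carried a gene number and were matched through the RefSeq gene table. All 31 passed the filter on low counts in each comparison. There were 19 synthesis genes (8 of the mevalonate arm and 11 of the sterol arm), 4 regulators, 4 genes of transport and storage, and 4 of export.

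The study examined how the hippocampal transcriptome changes in development. Every library came from an animal labelled as less than 1 year old, and the labels gave no genotype, treatment, sex or exact age, so all 32 form a single group. Each library was taken as 1 animal, because each title carries its own identifier. The titles share their opening 4 digits in 3 blocks, called A (14 libraries), B (16) and C (2) here in ascending order of those digits. They go on with a number that is below 20000 in 21 libraries (low numbers) and higher in 11 (high numbers). What either part stands for is not stated. All libraries of block A had low numbers, both of block C had high ones, and block B held 7 with low and 9 with high numbers. RNA was depleted of ribosomal RNA and made into stranded libraries, per the labels' protocols. A replicate number here is a library's place in deposition order and serves as a name only.

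Cholesterol does not cross the blood-brain barrier, so brain cells make their own. Acetyl-CoA is built up through mevalonate to isoprenoid chains, which are joined into squalene, closed into lanosterol and trimmed to cholesterol. When membrane sterol is low, SCAP carries SREBP proteins to the Golgi, where they are cut into factors that switch the synthesis genes on; INSIG proteins hold SCAP back when sterol is plentiful. Excess cholesterol is exported onto APOE particles by ABC transporters whose genes respond to oxysterols, or is hydroxylated by CYP46A1 in neurons and leaves the brain. In the young brain, myelin formation and growing neurons are large users of cholesterol.

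Libraries held 9347635 to 19673621 counts in genes, with a median of 16201657. No pair was alike within counting noise. Of all reads counted, 51.3% to 67.1% fell in no annotated gene feature (mean 57.0% ± 3.61, SD, n = 32). Replicate 1 (block A) stood apart, with the highest such share and the fewest gene counts. Some results are also given without it, but all values from within block A alone include it. Markers of hippocampal cell types were present: the 4 excitatory neuron markers, PROX1 of dentate granule cells among them, summed to 1726 to 4097 counts relative to library size (CPM), and the 8 astrocyte markers to 5300 to 9703 CPM. In bulk tissue, fewer cells of a type and less RNA per cell cannot be told apart. CPM are gene counts divided by the scaled library size, in the usual unit. They were not divided by transcript length, so levels are not compared between genes. The table does not say whether reads were counted by strand. In the RefSeq table ACAT2 overlaps TCP1, FDPS overlaps LOC119624279, TM7SF2 overlaps VPS51 and NPC1 overlaps RMC1, all protein coding, and values of these 4 genes are uncertain to that extent.

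Every one of the 31 genes was detected in every library, and most varied modestly between animals. The coefficient of variation of CPM had a median of 15.7% over the 31 genes, beside 17.8% over the 19959 genes kept for all libraries. It was lowest for SOAT1, at 8.64%, and SCAP, at 8.82%, and highest for INSIG1, at 24.2%. The plot of CPM by gene and library shows these spreads.

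**Figure D1:**
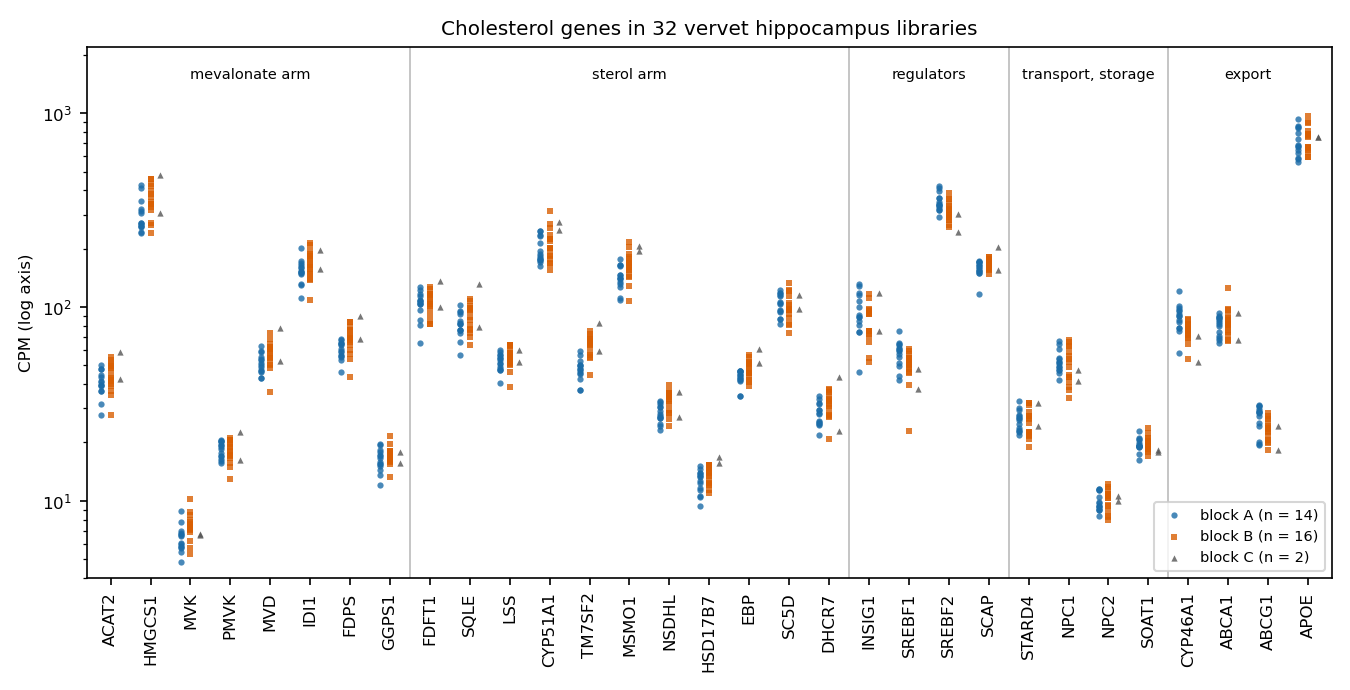
CPM (log axis) of each of the 31 genes in the 32 libraries, 1 point per library, with circles for block A, squares for block B and triangles for block C. The points of blocks A and B overlap for all 31 genes. INSIG1 spans 46.0 to 131.9 CPM, whereas SOAT1 keeps within 16.2 to 23.8 CPM.

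In the mevalonate arm, ACAT2, which joins acetyl-CoA units, had 43.0 ± 7.33 CPM (SD, n = 32) and ranged from 27.7 CPM in replicate 25 to 58.8 CPM in replicate 31. HMGCS1, the HMG-CoA synthase, had 335 ± 70.9 CPM with 239.8 CPM in replicate 25 and 480.4 CPM in replicate 31. Those same animals were lowest and highest for PMVK, MVD (36.5 and 77.8 CPM) and FDPS (43.5 and 89.9 CPM), which phosphorylate, decarboxylate and condense the intermediates. The isomerase IDI1 had 162 ± 25.4 CPM, lowest in replicate 25 at 108.4 CPM and highest in replicate 23 at 213.6 CPM. The kinase MVK had 6.94 ± 1.15 CPM and a different order, from 4.85 CPM in replicate 6 to 10.2 CPM in replicate 16. GGPS1, which makes the longer isoprenoid used to anchor proteins, had 16.8 ± 1.97 CPM.

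In the sterol arm, the squalene synthase FDFT1 had 105 ± 15.8 CPM (SD, n = 32) and the squalene epoxidase SQLE 86.7 ± 15.4 CPM. Both were lowest in replicate 1, at 65.3 and 56.6 CPM, and highest in replicate 31, at 136.3 and 131.4 CPM. The lanosterol synthase LSS varied less, with 54.0 ± 6.24 CPM. CYP51A1, the lanosterol demethylase, had 209 ± 38.4 CPM, and the methylsterol oxidase MSMO1 157 ± 27.7 CPM. Both were lowest in replicate 25 and highest in replicate 23. TM7SF2, a sterol reductase, had 57.0 ± 11.3 CPM and NSDHL, a sterol dehydrogenase, 30.7 ± 4.34 CPM. The remaining 4 genes, which reduce, isomerise or desaturate the ring, were HSD17B7 with 13.3 ± 1.75 CPM, EBP with 46.3 ± 5.60 CPM, SC5D with 102 ± 14.5 CPM and DHCR7 with 30.2 ± 5.16 CPM.

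Among the regulators, INSIG1, itself a target of the factors it restrains, had 89.4 ± 21.7 CPM (SD, n = 32), with 46.0 CPM in replicate 1 and 131.9 CPM in replicate 2. SREBF1 had 52.9 ± 9.83 CPM and ranged from 22.9 CPM in replicate 29 to 75.0 CPM in replicate 9. SREBF2, the member of the pair mostly tied to cholesterol rather than fatty acids, had 327 ± 43.1 CPM, and the escort SCAP 164 ± 14.5 CPM. For transport and storage, the sterol carrier STARD4 had 25.97 ± 3.71 CPM. The lysosomal exit proteins NPC1 and NPC2 had 51.1 ± 9.06 and 10.1 ± 1.14 CPM. The esterifying enzyme SOAT1 had 19.5 ± 1.68 CPM.

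Among the export genes, the lipid carrier APOE had 733 ± 110 CPM (SD, n = 32), with 562.2 CPM in replicate 8 and 970.6 CPM in replicate 22. The transporter ABCA1 had 82.4 ± 12.3 CPM, and 1 library, replicate 16, reached 126.1 CPM. The transporter ABCG1 had 24.7 ± 3.97 CPM. The neuronal hydroxylase CYP46A1 had 80.1 ± 14.3 CPM, with 51.8 CPM in replicate 32 and 121.7 CPM in replicate 5.

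Synthesis genes varied together from animal to animal, and export genes leaned the other way. Over the 171 pairs of synthesis genes the median Pearson r of log2 CPM was 0.57 (n = 32 libraries), and 90.6% of the pairs were positive. Over the 6 pairs of export genes it was 0.37, and over the 76 pairs of a synthesis with an export gene -0.35, with 85.5% negative. The median over pairs of all 19959 genes was -0.001. These correlations are descriptions: all points share their libraries and scaling, and the genes were chosen as a pathway with earlier results of these data known.

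The tightest pairs joined enzymes of both arms. ACAT2 and FDPS had r = 0.92, MSMO1 and FDPS 0.91, and IDI1 and MSMO1 0.89 (n = 32). FDPS had the highest median r with the other synthesis genes, 0.77. MVK stood outside this group, with a median r of -0.10, and LSS was loosely tied, at 0.29. SCAP (0.51), STARD4 (0.45), INSIG1 (0.41) and NPC2 (0.41) sided with the synthesis genes. These single-gene values depended on the share of reads in no gene feature. With a linear fit of that share removed, MVK had 0.25, above PMVK (0.11) and GGPS1 (0.21), while SCAP had 0.29, NPC2 0.18, STARD4 0.15 and INSIG1 0.13. As measured, SREBF2 (-0.18) and SREBF1 (-0.33), which encode the factors that drive synthesis, did not side with the synthesis genes. Of the export genes, ABCG1 had a median r of -0.51 with the synthesis genes, ABCA1 -0.47, CYP46A1 -0.29 and APOE -0.024. With the share removed their order changed, with CYP46A1 at -0.48, ABCG1 at -0.43, ABCA1 at -0.30 and APOE at -0.037.

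**Figure D2:**
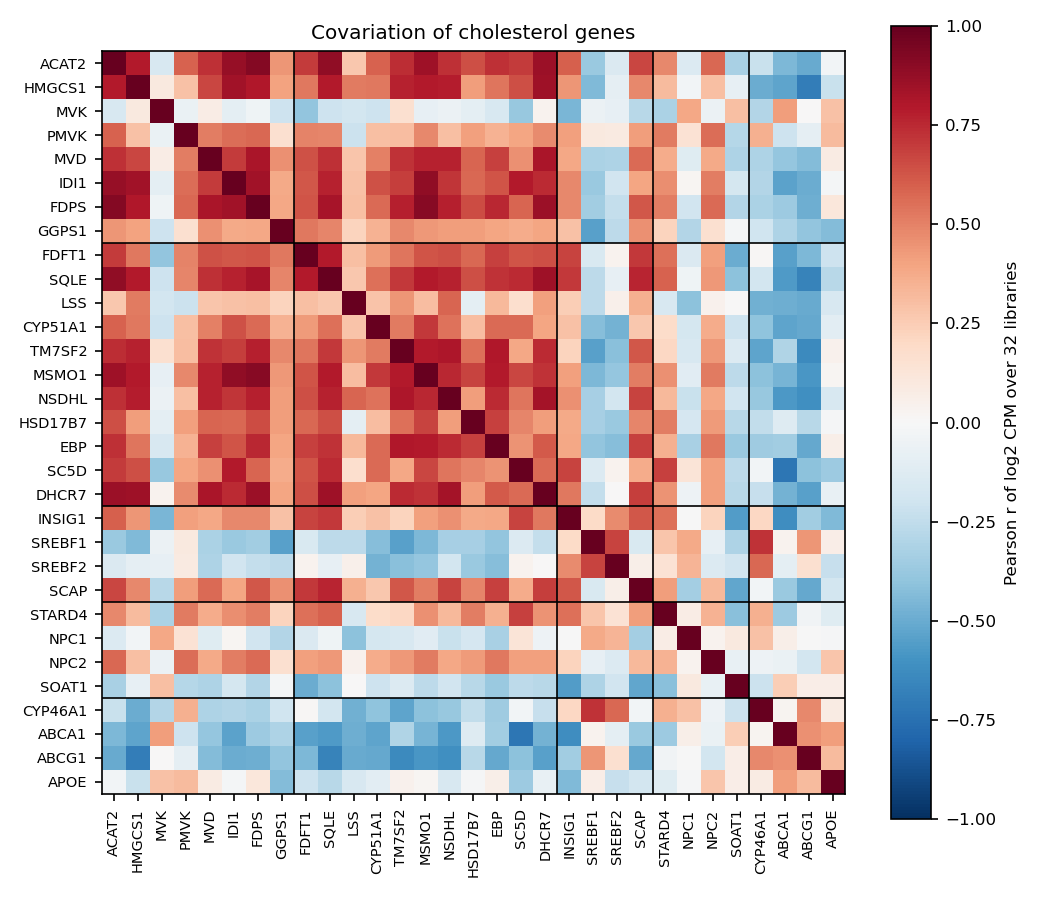
Pearson r of log2 CPM over 32 libraries for every pair of the 31 genes, with lines between the mevalonate arm, sterol arm, regulators, transport and storage, and export. The red square at upper left holds the synthesis genes (median r 0.57), broken by the pale lines of MVK and LSS; ABCA1 and ABCG1 form blue bands against it.

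The correlation among synthesis genes was smaller once the share of reads in no gene feature was accounted for. After a linear fit of that share was removed from each gene, the median r over synthesis pairs was 0.39, over export pairs 0.36 and between them -0.34. Removing the title block as well gave 0.35, 0.44 and -0.34. Within the 14 libraries of block A the medians were 0.66, 0.47 and -0.51, and within the 16 of block B they were 0.56, 0.25 and -0.15. The median between synthesis and export genes was thus closest to 0 within block B.

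Summed over its 19 genes, synthesis ran from 1177 CPM in replicate 25 to 2092 CPM in replicate 31, with a median of 1585 CPM. Export, summed over 4 genes of which APOE held most, ran from 728 CPM in replicate 12 to 1163 CPM in replicate 22. The ratio of the sums was 1.08 in replicate 1, 1.73 at the median and 2.52 in replicate 12. The sums of the synthesis and export genes had Pearson r = -0.26 and Spearman rho = -0.27 over the 32 libraries (log2 CPM). It was -0.62 within block A, -0.09 within block B and -0.41 without the 2 libraries farthest from the median synthesis sum. With every gene weighted equally r was -0.59 and rho -0.68. Without the 2 libraries farthest from the median of the equally weighted synthesis level r was -0.63. Within block A the equally weighted r was -0.73 (n = 14) and within block B -0.31 (n = 16).

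Some cell type markers moved with the equally weighted synthesis and export levels, and others did not. The equally weighted synthesis level had r = 0.59 (rho = 0.65, n = 32) with immature neuron markers, 0.44 without the 2 farthest libraries. For each marker list here, the 2 farthest libraries are those farthest from the median level of that list. It had r = 0.48 (rho = 0.54) with mural and fibroblast markers, 0.41 within block A and 0.26 within block B. With astrocyte markers r was -0.33, but -0.53 within block A and 0.03 within block B. With mature myelin markers it was 0.04, and with excitatory neuron markers -0.23, or -0.52 without the 2 farthest libraries. For the immature neuron markers it was 0.84 within block A and 0.10 within block B. The export level had r = -0.69 with immature neuron markers, -0.78 within block A and -0.71 within block B, and 0.58 (rho = 0.56) with astrocyte markers. Without the 2 farthest libraries these were -0.65 and 0.54. With oligodendrocyte precursor markers the r of the export level was -0.45. With choroid plexus markers it was 0.45, but only 2 of these 5 markers passed the filter. The 5 summed to a median of 7.42 CPM and reached 420 CPM in block B. Within block B r was 0.57 and rho 0.27. The summed CPM of the 9 immature neuron markers ran from 1353 to 4550 CPM, and of the 10 mature myelin markers from 2167 to 9616 CPM. No marker of either list was at 0 in all libraries. The part of cell makeup in the covariation was not tested.

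Most synthesis genes were lower in libraries in which more reads fell outside gene features. In edgeR's quasi-likelihood fit over 32 libraries, 15 of the 19 synthesis genes fell with the share at an adjusted p (Benjamini-Hochberg) under 0.05, and MVK rose. Of the 31 genes, 19 fell, 3 rose and 9 did not pass. Over all 19959 genes tested, 21.5% fell, 23% rose and 44.5% passed in either direction, so passing the test was common. The median slope was -0.12 log2 per SD of the share (3.61 percentage points) for synthesis genes and 0.006 for all genes, of which 52.0% had a positive slope. What sets this share in a library was not tested.

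The end libraries show the size of these slopes. SQLE had 131.4, 98.4 and 107.0 CPM in the 3 libraries with the lowest share (replicates 31, 20 and 27, at 51.3% to 51.9%) and 63.6, 73.5 and 56.6 CPM in the 3 with the highest (replicates 25, 17 and 1, at 62.0% to 67.1%). ACAT2 had 58.8, 51.3 and 55.6 CPM against 27.7, 37.0 and 27.9 CPM. INSIG1 had 117.5, 97.8 and 110.9 CPM against 51.8, 70.6 and 46.0 CPM. These 3 genes had the steepest slopes of the 31, so the gap between their end libraries adds nothing to those slopes. Other members had such a gap too, among them FDPS, TM7SF2 and EBP, while LSS and PMVK did not. How many of all genes had ends without overlap was not counted. ABCA1 went the other way, with 67.6, 84.4 and 67.1 CPM against 97.8, 81.6 and 89.0 CPM, and its end libraries did overlap. APOE had 758.4, 753.6 and 632.5 CPM against 592.5, 762.3 and 932.1 CPM, with no clear side.

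In the mevalonate arm, ACAT2 had a slope of -0.19 ± 0.032 (SE) log2 per SD and an adjusted p of 1.74e-05 in edgeR's quasi-likelihood test. FDPS followed at -0.15, IDI1 at -0.13, MVD at -0.11 and PMVK at -0.10. HMGCS1, at -0.11 ± 0.050 (adjusted p = 0.0726), and GGPS1, at -0.07 (adjusted p = 0.0571), did not pass. MVK had a slope of 0.11 ± 0.038 (adjusted p = 0.0180), which did not pass without replicate 1 (0.11, adjusted p = 0.0665). In the sterol arm 10 of 11 genes fell. SQLE led at -0.18 ± 0.032 (adjusted p = 2.83e-05), then FDFT1 at -0.16 and TM7SF2 and MSMO1 both at -0.15, and EBP, at -0.12, had an adjusted p of 9.93e-05. LSS, at -0.02 ± 0.031 (adjusted p = 0.700), was the exception. CYP51A1, NSDHL and HSD17B7 had -0.11, -0.10 and -0.11, and SC5D and DHCR7 both -0.13. Leaving out replicate 20 or 25 took CYP51A1, and replicate 31 took MVD, over the threshold of 0.05, while HMGCS1 passed without replicate 5, 12 or 17 and GGPS1 without 10, 12, 20, 25, 28 or 29.

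Among the regulators, INSIG1 had the steepest slope of the 31 genes, -0.23 ± 0.052 log2 per SD (edgeR adjusted p = 0.000615). SCAP fell by 0.10 ± 0.017 on the log2 scale per SD (adjusted p = 2.22e-05). SREBF1 (0.05, adjusted p = 0.385) and SREBF2 (0.01, adjusted p = 0.763) did not pass. STARD4, at -0.12, and NPC2, at -0.08, fell, whereas SOAT1, at 0.06, rose. NPC2 (adjusted p = 0.0683) and SOAT1 (adjusted p = 0.0625) did not pass without replicate 1, and nor did NSDHL (adjusted p = 0.0623). NPC1, at 0.04 (adjusted p = 0.518), did not pass.

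Of the export genes only ABCA1 passed, at 0.09 ± 0.034 log2 per SD (edgeR adjusted p = 0.0343), and its adjusted p was 0.0553, 0.0582 and 0.0636 without replicates 25, 27 and 31. It was 0.0626 in DESeq2 and 0.0994 with no filter on low counts. With no filter MVK (adjusted p = 0.0543) and SOAT1 (adjusted p = 0.0763) did not pass either, so none of the 3 rising calls held there. ABCG1 had 0.07 ± 0.039 (adjusted p = 0.133), CYP46A1 -0.04 ± 0.044 (adjusted p = 0.446) and APOE 0.007 ± 0.038 (adjusted p = 0.899). The APOE slope was -0.04 without replicate 1 and also did not pass.

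**Figure D3:**
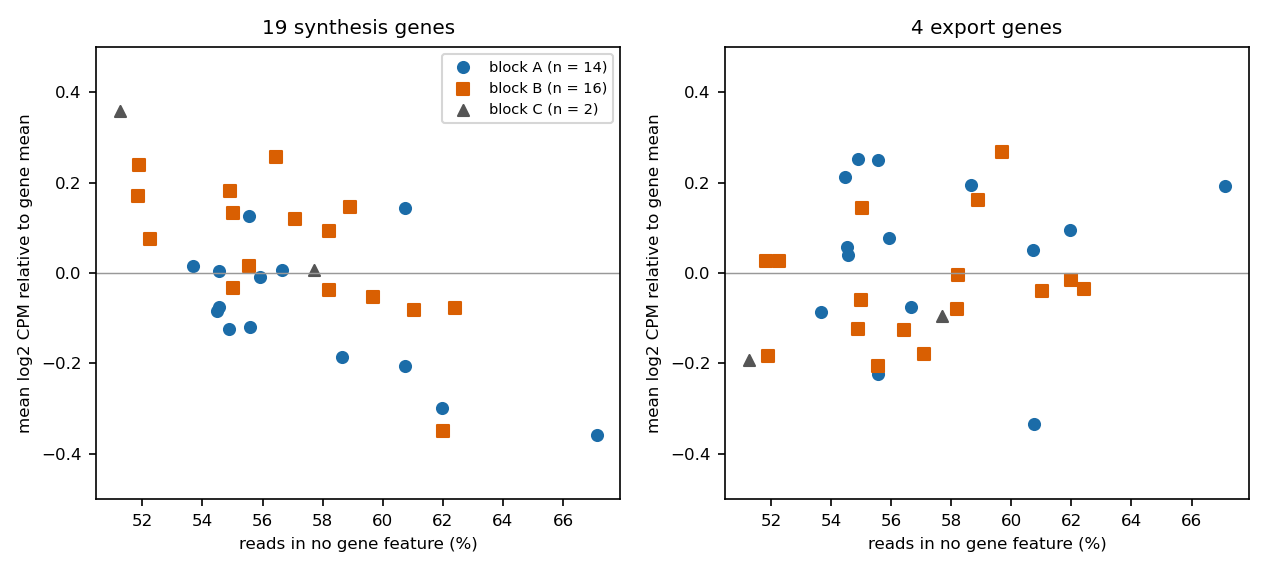
Mean log2 CPM relative to each gene's mean (y axis, genes weighted equally) against the percentage of reads in no gene feature (x axis), for the 19 synthesis genes and the 4 export genes, 1 point per library. The synthesis level declines with the share (r = -0.66, n = 32) in both main blocks, and the export level has no such slope (r = 0.18).

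The slopes of the synthesis genes were negative in both title blocks, except that of MVK in both and that of LSS in block A. With the block as a factor, 3 of the 31 genes rose and 19 fell, as without it, beside 23.6% and 22.1% of all genes. Without replicate 1 and without that factor, 1 rose and 17 fell, beside 17.1% and 15.8%. With the factor and without replicate 1 the counts were 2 and 18, beside 3536 higher and 3315 lower of all 20012 genes. Within the 14 libraries of block A, 2 rose and 11 fell, beside 19% and 18.7% of all genes. Within the 16 of block B, 5 fell (ACAT2 at -0.18, SQLE at -0.17, EBP at -0.11, SC5D at -0.18 and INSIG1 at -0.22 log2 per SD) and 0 rose by edgeR's test, beside 8.01% and 9.25% of all genes. Of the 31, 16 had an unadjusted p under 0.05 in either direction, as did 6069 of all 19268 genes tested there. The slopes were not shown to differ between blocks, as the test of that difference called 0 of the 31 genes and gave 0 of them an unadjusted p under 0.05. The equally weighted synthesis level had r = -0.66 and rho = -0.51 with the share over 32 libraries. Without the 2 libraries whose share lay farthest from its median, r was -0.59. The r with the share was -0.61 (rho = -0.45) within block A, replicate 1 included, and -0.69 (rho = -0.71) within block B.

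Of the cell type markers few passed with the share, beside 21.5% of all genes lower and 23% higher. Of the immature neuron markers 3 of 9 fell, of the mature myelin markers 0 of 10 passed, and 2 of 5 new oligodendrocyte, 2 of 7 precursor, 2 of 6 microglia, 1 of 8 astrocyte, 1 of 5 endothelial and 1 of 7 mural and fibroblast markers rose. None of the 4 excitatory, 3 inhibitory or 2 tested choroid plexus markers passed edgeR's test. The blocks differed in sign for myelin. The test of a difference in slope between blocks called 0 of the 10 markers and 0 of all 20037 genes. Within block A all 10 mature myelin markers had positive slopes and 3 rose, as did 5 of 7 precursor and 3 of 5 new oligodendrocyte, 3 of 6 microglia and 3 of 8 astrocyte markers, while 3 of 9 immature neuron markers fell. Within block B all 10 myelin slopes were negative, with a median of -0.14 log2 per SD, and none passed. With block as a factor and without replicate 1, 3 of 10 myelin slopes were positive and 7 negative (median -0.04). No immature neuron, astrocyte or endothelial marker then passed. Rising were 3 of 7 precursor, 1 of 5 new oligodendrocyte, 1 of 6 microglia and 1 of 7 mural and fibroblast markers. Of all 20012 genes in that fit, 3536 rose and 3315 fell. No fit within block A left replicate 1 out. The part of cell makeup in the slopes was not tested.

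Between title blocks, TM7SF2 and NSDHL were higher and CYP46A1 was lower in block B than in block A, and the other 28 genes did not pass. Over all 23977 genes tested, 7.11% were higher in block B, 5.35% lower and 12.5% different in either direction. The 3 genes called of 31 are a share near that background, so the count says nothing particular of the pathway. Of the synthesis genes 17 of 19 had a positive difference, with a median of 0.13 log2, whereas 51.2% of all genes were positive with a median of 0.005. With libraries of low numbers only, 13 of 19 were positive, with a median of 0.03 log2 beside 0.0007 for all genes. Mean shares of reads in no feature were 57.5% and 56.9% in block A and block B, which differed by less than the spread between libraries (two-sided permutation test, p = 0.649).

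TM7SF2 had 37.1 CPM at the lowest, 48.0 at the median and 59.3 at the highest in the 14 libraries of block A, and 44.8, 64.8 and 74.9 CPM in the 16 of block B. The ranges overlapped, and 15 of 16 libraries of block B lay above the median of block A. The log2 difference was 0.41 ± 0.071 (SE, edgeR adjusted p = 0.000612), and between 0.38 and 0.44 when each library was left out. NSDHL had 23.1, 27.7 and 32.7 CPM in block A and 24.3, 34.0 and 39.5 CPM in block B, with 14 of 16 above the median of block A. Its difference was 0.22 ± 0.067 (adjusted p = 0.0300). It did not pass without replicate 22, 26 or 28 (adjusted p = 0.0524, 0.0528 and 0.0574).

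CYP46A1 had 58.0 CPM at the lowest, 90.3 at the median and 121.7 at the highest in block A, and 53.9, 75.6 and 86.5 CPM in block B. All 16 libraries of block B lay below the median of block A, although the ranges overlapped. Its log2 difference was -0.25 ± 0.075 (SE, edgeR adjusted p = 0.0258). ABCG1 also had 16 of 16 libraries below the median of block A, but with medians of 28.6 and 23.6 CPM and a difference of -0.18 ± 0.075 it did not pass (adjusted p = 0.104). ABCA1 (0.08, adjusted p = 0.547) and APOE (0.06, adjusted p = 0.676) did not pass either.

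**Figure D4:**
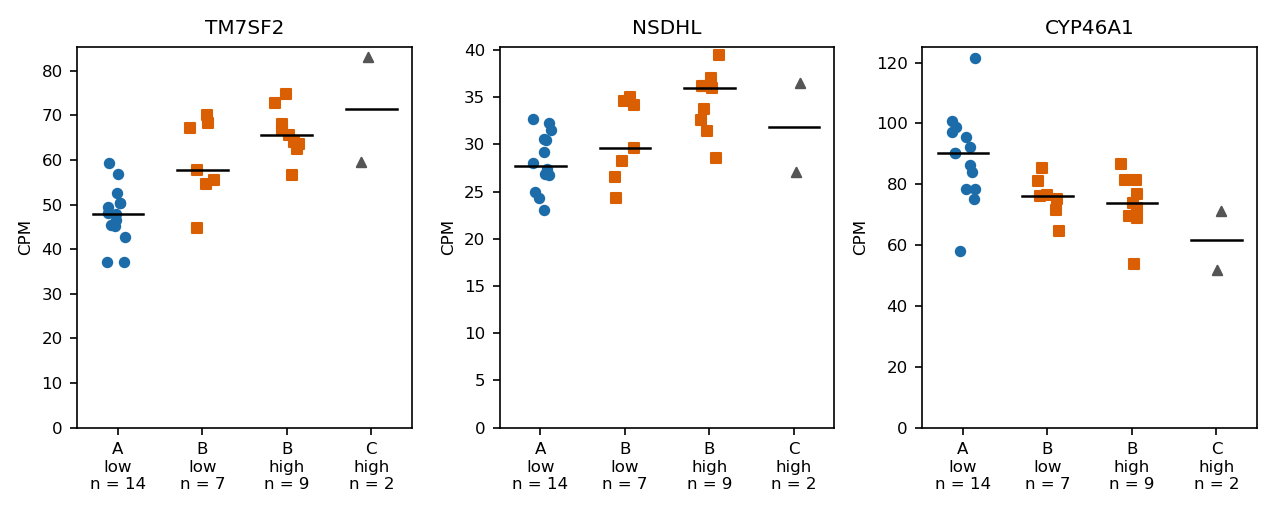
CPM of TM7SF2, NSDHL and CYP46A1 by title block and number set, 1 point per library and a line at each median. Medians of TM7SF2 are 48.0 CPM in block A, 57.8 CPM in low-number block B and 65.5 CPM in high-number block B; those of CYP46A1 are 90.3, 76.0 and 73.9 CPM.

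Several synthesis genes came near the threshold. HMGCS1 had a median of 272.9 CPM in block A and 344.4 CPM in block B, a log2 difference of 0.25 ± 0.099 (SE, edgeR adjusted p = 0.0920). MVK (0.21, adjusted p = 0.0863), MSMO1 (0.21, adjusted p = 0.0803), FDPS (0.19, adjusted p = 0.0928) and EBP (0.15, adjusted p = 0.0664) did not pass either. Leaving out 1 library brought HMGCS1 (replicate 8 or 12), MVK (1), FDPS (25), MSMO1 (12, 18 or 25), EBP (17, 18 or 25) and the exporter ABCG1 (8 or 12) under the threshold. With the share of no-feature reads as a covariate MVK, MSMO1 and EBP also passed and 6 of the 31 genes were called, near the 18.5% called over all genes in that fit. Only SC5D, at -0.04, and PMVK, at -0.01, had negative differences among the 19, and PMVK turned positive when replicate 2, 5, 8, 14, 25, 26 or 27 was left out. FDFT1 (0.03) turned negative, at -0.02, without replicate 1.

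The regulators leaned lower in block B, but none passed edgeR's test. SREBF1 had medians of 59.8 and 50.9 CPM in block A and block B and a log2 difference of -0.21 ± 0.093 (SE, adjusted p = 0.134), with 15 of 16 libraries below the median of block A. SREBF2 had -0.16 ± 0.061 (adjusted p = 0.0842) and INSIG1 -0.18 ± 0.12 (adjusted p = 0.367). SREBF2 passed without replicate 1 (adjusted p = 0.0326) and without replicate 18 (adjusted p = 0.0385). SCAP had 0.08 (adjusted p = 0.324). The 4 genes of transport and storage had differences between -0.05 and 0.03.

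With libraries of low numbers only, 14 of block A against 7 of block B, TM7SF2 alone of the 31 passed (0.32 log2, edgeR adjusted p = 0.0403), beside 5.23% of all genes. NSDHL then had 0.11 (adjusted p = 0.482), CYP46A1 -0.23 (adjusted p = 0.150) and ACAT2 -0.06 (adjusted p = 0.806). In the full comparison the number sets are unequal between the blocks.

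Markers of immature neurons differed between the blocks as well. Of 9, 8 were higher in block B, where 7.11% of all genes were higher and 5.35% lower, and their summed CPM ran from 1353 to 2802 (median 1792) in block A and from 1617 to 4239 (median 2855) in block B. Higher in block B were also 3 of 7 oligodendrocyte precursor, 2 of 5 new oligodendrocyte, 2 of 6 microglia, 1 of 3 inhibitory neuron and 1 of 7 mural and fibroblast markers. Of the 4 excitatory neuron markers 2 were lower, with summed medians of 3384 CPM in block A and 2515 CPM in block B. By edgeR's test 0 of 10 mature myelin, 0 of 8 astrocyte, 0 of 5 endothelial and 0 of 5 choroid plexus markers passed. No marker was at 0 in all libraries of either block. Their part in the differences of TM7SF2, NSDHL and CYP46A1 was not tested.

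**Figure D5:**
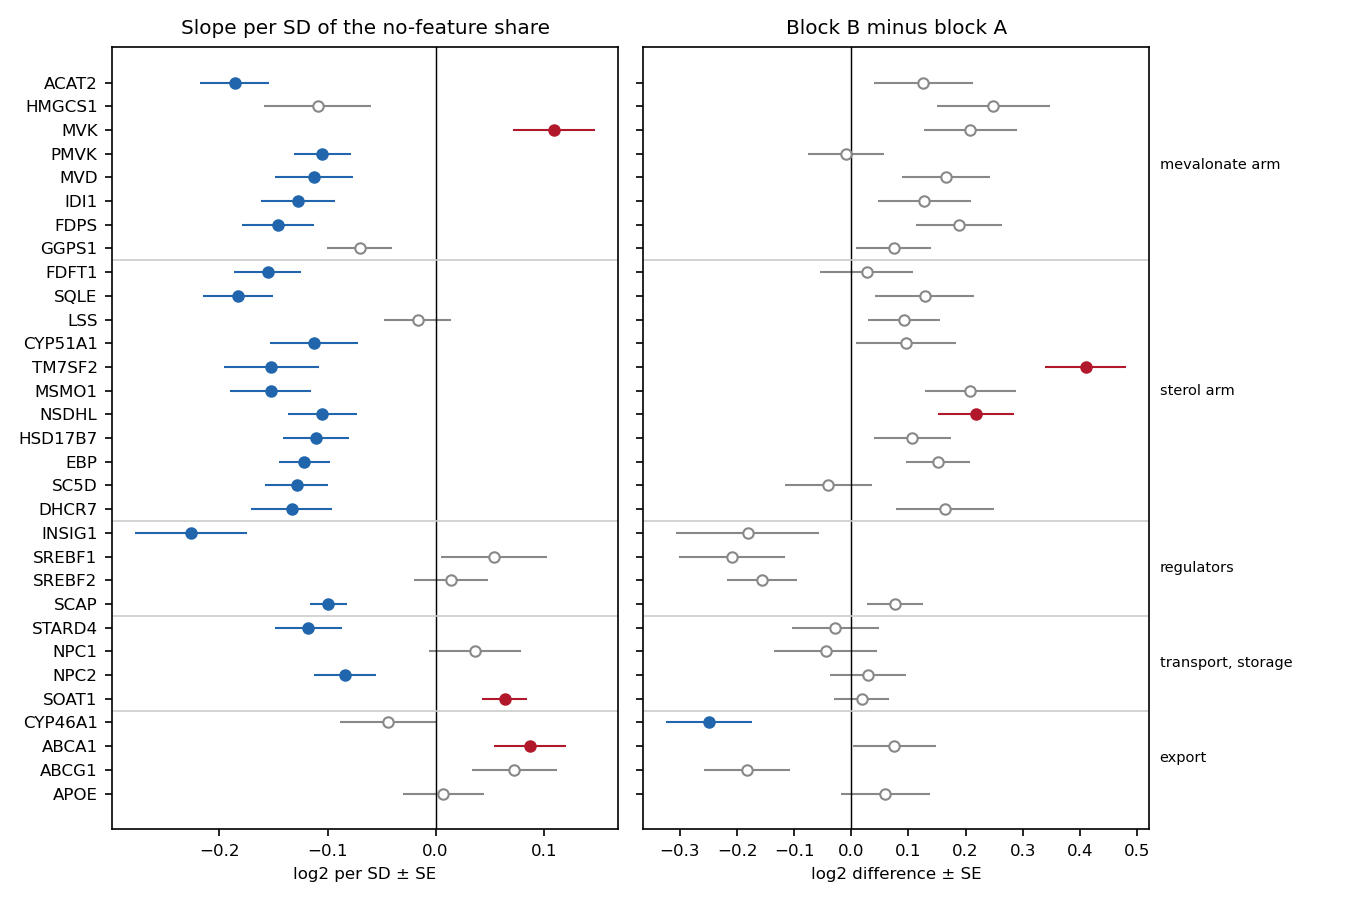
For each of the 31 genes, the slope per SD of the no-feature share (left, log2 per SD ± SE) and the difference of block B minus block A (right, log2 ± SE); filled points have an edgeR adjusted p under 0.05, blue for lower and red for higher. On the left 19 points are filled blue and 3 red; on the right TM7SF2 and NSDHL are filled red and CYP46A1 blue.

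Within block B, synthesis genes leaned higher in libraries with high numbers, but no gene passed. Their summed CPM was 1502 ± 198 (SD, n = 7) with low and 1766 ± 167 (SD, n = 9) with high numbers, and the ranges overlapped. ACAT2 had 27.7, 39.2 and 49.4 CPM (lowest, median, highest) with low and 40.2, 48.4 and 55.6 CPM with high numbers. Its log2 difference was 0.30 ± 0.099 (SE, edgeR adjusted p = 0.229). IDI1 had 108.4, 147.7 and 194.5 CPM against 157.7, 180.7 and 213.6 CPM, a difference of 0.30 ± 0.096 (adjusted p = 0.220). FDPS had 43.5, 60.3 and 75.9 CPM against 66.2, 70.6 and 84.1 CPM, a difference of 0.29 ± 0.094 (adjusted p = 0.225). In all 3 genes the sets overlapped.

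Of the 31 genes, 0 passed edgeR's test, 10 had an unadjusted p under 0.05, and DESeq2 called 0. Over all 21488 genes tested by edgeR 0% passed and 3023 had an unadjusted p under 0.05. DESeq2 called 180 of the 20709 genes it tested. Differences were positive in 18 of 19 synthesis genes, with a median of 0.21 log2, and in 50.1% of all genes, with a median of 0.0004. MVK was the exception at -0.13 ± 0.12. The export genes lay on both sides: ABCA1 at -0.15, CYP46A1 at -0.03, ABCG1 at 0.03 and APOE at 0.13. The share of no-feature reads moved with the number set, at 59.1% with low and 55.2% with high numbers (exact two-sided permutation test, p = 0.0194). With the share as a covariate the median of the synthesis genes was 0.08 log2. ACAT2 then had 0.17, IDI1 0.21 and FDPS 0.22, SQLE went from 0.21 to 0.04 and TM7SF2 from 0.15 to 0.04. In that fit 0 of the 31 genes, and 922 of the 21488, had an unadjusted p under 0.05. Some cell type markers leaned with the number set too, and none passed edgeR's test. All 10 mature myelin markers had positive differences, with a median of 0.23 log2, and of 0.02 with the share as a covariate. The 7 mural and fibroblast markers had a median of 0.25, and of 0.29 with the share. The 9 immature neuron markers had a median of -0.02. Summed myelin CPM ran from 2167 to 8973 with low and from 2310 to 8885 with high numbers. Their part in the synthesis differences was not tested. Share and number set cannot be told apart fully in 16 libraries.

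Other genes of the pathway, 52 in lists of further synthesis and processing factors, fatty acid synthesis, lipoprotein uptake, oxysterol-responsive export, oxysterol enzymes and sterol transfer, were also tested. With the share, of 50 tested 6 rose and 10 fell, beside 23% and 21.5% of all genes, with a median slope of 0.001. Between blocks, 3 of 51 were higher and 8 lower in block B, beside 7.11% and 5.35% of all genes, with a median of -0.02, and within block B none of 50 passed edgeR's test between number sets. The named genes have the smallest adjusted p.

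With the share, ACLY, which supplies cytosolic acetyl-CoA, had a slope of -0.16 ± 0.028 log2 per SD (edgeR adjusted p = 2.41e-05). POR, the electron donor of CYP51A1 and SQLE, had -0.16 ± 0.029 (adjusted p = 3.63e-05). RXRB, a partner of the oxysterol receptors, had -0.07, while the bile acid enzyme HSD3B7 (0.17), the lipoprotein receptor LRP1 (0.13) and the lipin LPIN1 (0.12) rose. Of the 9 fatty acid genes 1 rose and 1 fell, and of 10 genes of lipoprotein uptake likewise, beside 44.5% of all genes called in either direction.

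Between blocks, CYP27A1, which makes an oxysterol from cholesterol (-0.55 ± 0.13 log2, edgeR adjusted p = 0.00494), and CYP7B1, which hydroxylates oxysterols further (-0.26, adjusted p = 0.0226), were lower in block B, the direction of CYP46A1. Of the 5 oxysterol genes these were the 2 called. The APOE receptor LRP8 (0.28 ± 0.060, adjusted p = 0.00283), the sterol transfer protein GRAMD1A (0.29, adjusted p = 0.00365) and the plasma esterifying enzyme LCAT (0.29, adjusted p = 0.0124) were higher. The sorting receptor SORL1 was lower (-0.32, adjusted p = 0.0136). Uptake genes moved both ways, with 1 of 10 higher and 2 lower.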

How the data were processed

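Hippocampal RNA of 32 animals was sequenced. The deposited values are read counts per gene, made by the authors with STAR and HTSeq per the submitters' processing notes, with no normalization. Versions, genome build, annotation and strand setting: not given in the sources used here. Of 33999 rows, 5 count reads outside genes and entered neither library sizes nor tests. The no-feature row made up 51.3% to 67.1% of reads. Gene counts per library were 9347635 to 19673621. The floor for a count of 0 is 3 counts, for counting error only.

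Counts were scaled by TMM and tested with edgeR 4.0.16 (quasi-likelihood, R 4.3.3) after filterByExpr, with Benjamini-Hochberg adjustment over all genes kept and a threshold of 0.05. Blocks were compared with all 32 libraries in the fit, number sets within block B, and the no-feature share as a slope per SD. P-values measure the spread between these libraries. Alternatives were DESeq2 1.42.0, its size factors in edgeR, no filter, covariates, subsets and leaving out each library; the block factor without replicate 1, the interaction, equal weights and residual values were chosen after seeing the data. The fits were tested on simulated data.

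The 31 genes and all lists were chosen with earlier results of these data known. All 31 are named; of related genes up to 6 per comparison with the smallest adjusted p at a mean CPM of at least 1, and marker lists by counts and sums. A planned description of promoter motifs was not run, as no promoter sequences were used here. Counts by gene could not be divided by transcript length. Figures were drawn with matplotlib 3.10.9.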

Additional observations from a re-analysis of the deposited data

Results flagged for a closer look

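Of 62 checks for a library far from the rest of its set of 4 to 10 libraries, 2 met Dixon's 95% criterion, and chance flags about 1 in 20. Both were in the 7 low-number libraries of block B. GGPS1 had 13.3 CPM in replicate 17, below the next library at 16.5 CPM. STARD4 had 32.03 CPM in replicate 21, above the next at 22.7 CPM.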

How the results depend on the processing

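Scaling by DESeq2's size factors changed no count of the 31 genes called. The 3 calls between blocks became 6 with the share as a covariate (18.5% of all genes), 1 with low numbers only and 2 to 6 when each library was left out, and the 2987 genes called overall became 1162 with low numbers only and 2237 to 3870 with each library left out. With no filter the 3 calls became 2, without NSDHL (adjusted p = 0.0508). Without replicates 12, 18 or 25 there were 6 calls, without 1 or 8 there were 5, and without 22, 26 or 28 there were 2. The 0 genes called between number sets became 180 in DESeq2 and 0 to 21 with each library left out, the highest without replicate 26. The 22 calls with the share became 13 within block A, 5 within block B and 18 to 24 with each library left out, and of the 3 genes that rose (MVK, SOAT1 and ABCA1) DESeq2 called 2, without ABCA1, and a fit with no filter 0. The 8877 genes overall became 3327 within block B. The r of the summed synthesis and export CPM, -0.26, was -0.15 with plain totals, -0.62 within block A and -0.090 within block B. Without the 2 libraries farthest from the median synthesis sum it was -0.41. The causes of these changes were not tested. The subsets also hold fewer libraries.

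Signs turned only for genes that passed in neither fit. With low numbers only the block differences were -0.056 (ACAT2), -0.054 (IDI1), -0.11 (FDFT1), -0.043 (CYP51A1), 0.014 (NPC1), -0.045 (NPC2) and -0.019 (APOE). With the share as a covariate the number-set differences were -0.15 (INSIG1), -0.031 (SCAP) and 0.036 (SOAT1). The share slope of LSS was 0.0061 within block A and 0.0052 with block as a factor and without replicate 1. For SREBF2 it was -0.0049 with block as a factor and -0.0077 within block A, and for NPC1 -0.045 within block B and -0.0012 with block as a factor and without replicate 1. For APOE it was -0.0079 with no filter, -0.0022 in DESeq2 and -0.039 with block as a factor and without replicate 1. With each library left out, block differences ran from -0.030 to 0.017 (PMVK), -0.016 to 0.052 (FDFT1), -0.055 to 0.00042 (STARD4) and -0.0079 to 0.032 (SOAT1). Number-set differences ran from -0.070 to 0.010 (CYP46A1) and -0.026 to 0.076 (ABCG1), and share slopes from -0.025 to 0.0025 (LSS), -0.0035 to 0.041 (SREBF2) and -0.038 to 0.023 (APOE).

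Replicate numbers follow deposition order and pair nothing. No paired analysis was possible because all libraries belong to 1 group. Depth of 9347635 counts in replicate 1 limits the precision of its low values.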
